A study of Mus musculus with 4 samples.

Results

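Goblet cells with low lysozyme were studied in cultured mouse intestinal organoids, which are small epithelial cultures grown from crypts. A cell barcode with at least 500 detected genes was counted as such a cell when 3 limits were met, each in CPM, the gene's unique molecular identifiers (UMIs, 1 per RNA molecule captured) per 1000000 UMIs of the same barcode. The summed CPM of the goblet genes Muc2, Fcgbp, Zg16 and Clca1 was 1000 or more, Lyz1 was under 5000 CPM, and the summed CPM of 6 cell division genes (Mki67, Top2a, Cenpf, Ube2c, Birc5 and Cdk1) was under 500. The rule selected 196 of 5429 cells, of which 48 were in control 1, 41 in control 2, 39 in knockout 1 and 68 in knockout 2. Because these 11 genes chose the cells, their values are described below without a test.

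The crypts came from 2 mice, 10 weeks old, that carried Cbl flox/flox and Cblb flox/flox alleles and a Cre-ERT2 from the R26 locus. Knockout organoids received 4-hydroxytamoxifen at 400 nM for 3 days, and control organoids grew without it. All 4 libraries therefore carry the floxed alleles and the Cre, and the effects of the drug and of the deletion cannot be told apart. Each group had 2 libraries, numbered 1 and 2, and libraries with the same number are treated as the same mouse, since their deposited files carry the same prefix. R26 is active in most cell types, so the deletion was not directed at goblet cells.

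Goblet cells are the mucus-secreting cells of the intestinal epithelium. They package the gel-forming mucin Muc2 with partner proteins such as Fcgbp, Clca1, Zg16 and Tff3, after folding in the endoplasmic reticulum and heavy glycosylation in the Golgi. Paneth cells are the antimicrobial secretory cells of the small intestinal crypt base and release lysozyme (Lyz1), alpha-defensins (the Defa genes) and the matrix metalloproteinase Mmp7, which processes defensin precursors. Both types come from crypt progenitors under the transcription factor Atoh1, with Spdef acting in their maturation. Cbl and Cblb are ubiquitin ligases that limit signalling by receptor tyrosine kinases such as EGFR.

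The label was checked against goblet genes that the rule did not use. Tff3, the trefoil peptide of goblet mucus, had at least 1 UMI in 100% of the cells of control 1, control 2 and knockout 2 and in 97.4% of those of knockout 1. The same share was 26.1% to 41.9% in a reference set of 891 enterocytes, the absorptive cells, which should hold little Tff3. Spdef was detected in 75%, 73.2%, 56.4% and 64.7% of the goblet cells in the order control 1, control 2, knockout 1, knockout 2, and in 0% of the enterocytes of every library, which allows a share of up to 1.08% to 1.82%. That order is kept for every set of 4 values below. Agr2, a disulfide isomerase needed for mucin folding, was detected in 87.2% to 95.8%, against 12.1% to 20.6% of enterocytes. The goblet secretory protein Spink4 was detected in 89.7% to 97.6%, against 24.5% to 49.0%. A nearer reference was 108 non-dividing cells under the goblet limit with Lyz1 at 5000 CPM or more. Spink4 stood there at 8329, 8274, 13580 and 10462 CPM, against 12551, 8439, 9632 and 10758 CPM in the goblet cells. Spink4 thus did not separate the goblet cells from them. Tff3 stood there at 8435, 7820, 8557 and 10139 CPM, against 22364, 23733, 14472 and 18969 CPM. Retnlb, a goblet product of the inflamed and colonic epithelium, had no UMI in any of the 196 cells nor in any of the enterocytes. At 3 counts this allows up to 4.41% to 7.69% of the goblet cells of a library to hold a UMI, and it says nothing of lower expression.

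Depth differed between the libraries. The goblet cells had median UMI counts of 17770, 26387, 6966 and 15465, against 20166, 27737, 16525 and 17918 for all other cells, so those of knockout 1 were the shallowest. Cells with fewer than 5000 UMIs numbered 17 of 39 in knockout 1, against 10 in control 1, 7 in control 2 and 13 in knockout 2. The 4 goblet rule genes gave a median of 40, 98, 24 and 41.5 UMIs per cell, and 15 of the 196 cells (7.65%) passed the limit on fewer than 5 such UMIs. The nearest cells inside and outside the limits had 1002 and 998.2 CPM for the goblet sum, 4936 and 5072 CPM for Lyz1, and 490.2 and 515.7 CPM for the division sum, so the limits cut through a range rather than a gap. A doublet caller marked 1 of the 196 cells, and none shared a barcode with a cell of another library.

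Many of the low-lysozyme cells held other Paneth transcripts, at lower levels than goblet cells of high Lyz1. The summed level of 13 Paneth markers other than Lyz1 made up 8.94%, 6.58%, 3.6% and 3.34% of all UMIs of the goblet cells. Between cells the range was wide: the median cell held 40728, 25513, 6655 and 16865 CPM, the lowest cells held 187.5, 87.4, 0 and 129.8 CPM, and the highest held 567710, 310879, 555911 and 320105 CPM. In all, 96 of the 196 cells held 20000 CPM or more of these markers, which was 60.4%, 56.1%, 35.9% and 44.1% of the cells by library. Goblet cells with Lyz1 at 5000 CPM or more had medians of 166218, 121421, 198064 and 156373 CPM. Enterocytes, which should lack them, held a summed level of only 324.2 to 469.1 CPM, at median depths of 9848, 14637, 5372 and 8911 UMIs. The mucus genes of the rule chose these cells, so those genes do not by themselves bear out the name. Outside the rule, Tff3 lay above its level in the 108 cells of high Lyz1 under the goblet limit, and Spink4 did not separate them. Many of the chosen cells were also rich in defensin transcripts.

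**Figure D1:**
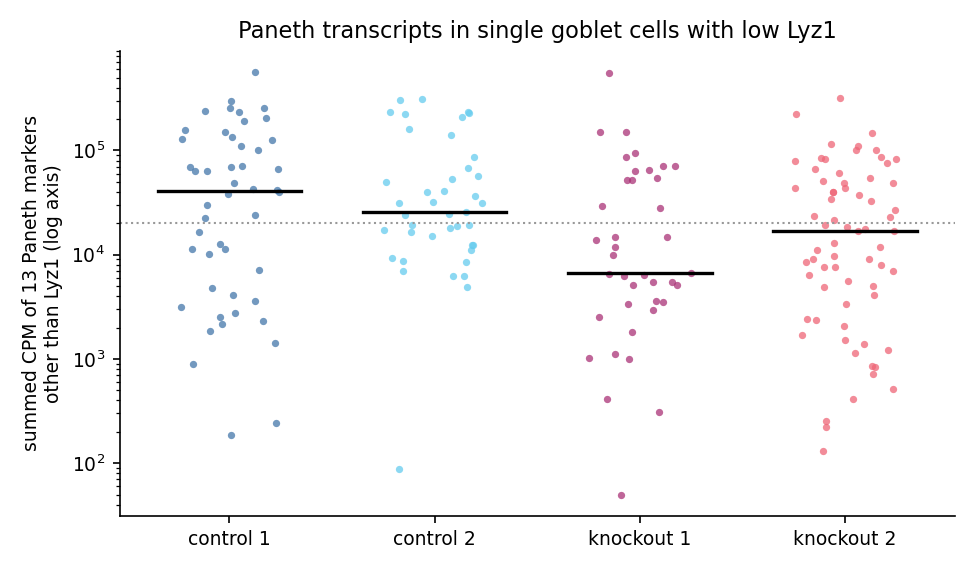
Summed CPM of 13 Paneth markers other than Lyz1 (log axis) in each goblet cell with low lysozyme, by library; each point is a cell and the black bar is the median. One cell at 0 is drawn at 50, the dotted line marks 20000 CPM, and cells of every library lie on both sides of it, with medians of 40728, 25513, 6655 and 16865 CPM.

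Markers of tuft cells and of cells from outside the epithelium were nearly absent. Immune, mesenchymal, endothelial, glial, erythroid and tuft markers each summed to at most 5.35 CPM in any library. Enterocyte markers summed to 541.8, 1079, 834.3 and 2145 CPM, and enteroendocrine markers, those of hormone-secreting cells, to 896.8, 133.1, 1032 and 363.5 CPM. Part of these sums came from few cells. Of the 196 cells, 16 (3, 3, 3 and 7) held 5000 CPM or more of one of them, 11 for enterocyte and 5 for enteroendocrine markers. Whether those are mixed droplets or cells with both programmes was not tested, and counts are given below with and without them.

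The goblet cells made up 4.14% of the cells of control 1 (exact Clopper-Pearson 95% interval 3.07% to 5.45%), 5.98% of control 2 (4.32% to 8.02%), 2.36% of knockout 1 (1.69% to 3.22%) and 3.52% of knockout 2 (2.74% to 4.44%). These intervals cover counting error only. Both knockout libraries lay below both control libraries, but only the intervals of knockout 1 and control 2 were apart, and the other 3 pairs of a control and a knockout had overlapping ones. The means were 5.06% ± 1.30 (SD, n = 2) in control and 2.94% ± 0.816 (SD, n = 2) in knockout. The difference of -2.12 percentage points had a two-sided exact permutation p of 0.333, the smallest that 2 against 2 libraries allow. Within the mice it was -1.77 and -2.46 points.

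Cells that met the goblet and division limits with Lyz1 at 5000 CPM or more, which numbered 445, took 10.2%, 9.04%, 6.06% and 8.54% of the cells. Their difference was -2.31 points (two-sided exact permutation p = 0.333), with -4.11 and -0.502 within the mice. Among all non-dividing cells past the goblet limit, the share with low Lyz1 was 28.9%, 39.8%, 28.1% and 29.2%. In that share control 1, knockout 1 and knockout 2 lay close together, with control 2 alone above the rest.

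**Figure D2:**
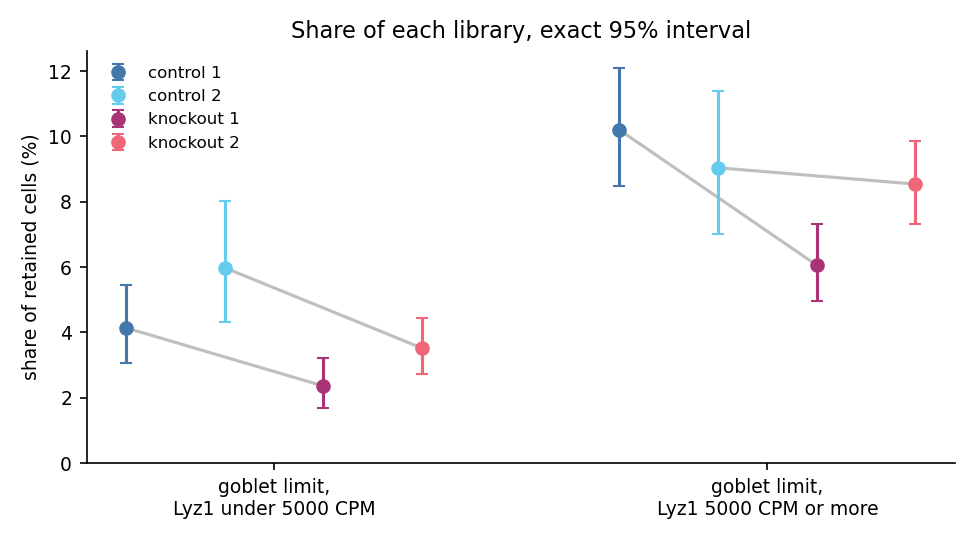
Share of all cells with at least 500 genes, in percent, for goblet cells with low lysozyme and for comparison sets cut by the same limits; each point is a library and the bars are exact 95% intervals. The 2 knockout libraries lie at 2.36% and 3.52%, below the controls at 4.14% and 5.98%.

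The 4 mucus genes of the rule were mixed differently from cell to cell. Fcgbp, the IgG Fc-binding mucus protein, gave the most UMIs of the 4 in 35, 26, 29 and 28 cells, and Muc2 in 11, 10, 7 and 27. Clca1, a secreted mucus protease, was detected in 18.8%, 41.5%, 7.69% and 52.9% of the cells. After every cell was thinned to 5000 UMIs, which left 38, 34, 22 and 55 cells, the share with Clca1 was 23.7%, 29.4%, 13.6% and 47.3%. Library 2 of each group was the higher in both counts. Zg16, a lectin of the mucus layer, was detected in 16.7%, 31.7%, 10.3% and 26.5%, although its level over all cells was 1225, 3663, 3056 and 2717 CPM, so it came from few cells. As levels over all cells, Muc2 stood at 1850, 1449, 863.7 and 1846 CPM, Fcgbp at 3418, 3019, 2375 and 1756 CPM, Clca1 at 1122, 748.2, 633.8 and 1348 CPM, and Lyz1 at 1779, 1594, 1233 and 1920 CPM. Of these, Fcgbp was lower in both knockouts than in both controls and the other 3 overlapped between the groups.

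Cells were then divided, within each library, at the median of their summed goblet CPM, which was 3126, 3830, 2475 and 3096. The cells above the median had higher levels of Tff3 (36181, 38586, 21306 and 26064 CPM, against 11885, 13472, 9343 and 12327 below it). The levels below it still exceeded the 8435, 7820, 8557 and 10139 CPM of the 108 cells of high Lyz1 under the goblet limit, but by less. Bcas1 was higher above the median by 2.82 to 8.83-fold over the libraries. Stx17, a SNARE protein, Ramp1, a receptor activity-modifying protein, Rep15, a Rab15 effector, and Mllt3 also had higher levels above it in every library. Tomm70a, a subunit of the mitochondrial import receptor, was higher below the median by 1.75 to 3.03-fold, as were the histone chaperone Nasp and the DNA repair enzyme Apex1. Defa30 stood at 102.5, 1638, 143.5 and 1208 CPM above the median and at 10170, 6684, 4002 and 294.7 CPM below it. Only knockout 2 went the other way. A single cell gave 42.6%, 61.4%, 95.3% and 37.8% of all Defa30 UMIs of the goblet cells, so its direction by library rests on few cells. These values describe a range of one sum and carry no test.

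Compared with all other cells, also without a test since the rule set this contrast, the widest differences were in genes of the goblet and wider secretory programme. The smallest and the largest ratio over the 4 libraries were 9.71 and 17.3 for Rep15, 6.99 and 12.5 for Sytl2, a Rab27 effector in granule exocytosis, and 6.63 and 11 for Tff3. They were 6.30 and 14.7 for Spdef, 5.75 and 9.03 for Agr2, and 5.04 and 9.82 for Atoh1. Ern2, the endoplasmic reticulum stress sensor of mucus cells, was 5.19 to 12.3-fold higher, and Spink4 was 4.16 to 6.35-fold higher. Creb3l1 and Creb3l4, membrane-bound transcription factors of secretory cells, and Txndc5, a disulfide isomerase, were also among the 25 leading genes. Goblet cells of high Lyz1 also held such genes, some at lower, some at similar and some at higher levels. Spdef, at 218.7, 124.0, 248.7 and 203.0 CPM in the low-lysozyme cells, stood there at 131.8, 150.7, 131.1 and 168.6 CPM. Rep15, at 104.4, 86.2, 107.0 and 82.8 CPM in the low-lysozyme cells, stood there at 79.6, 76.3, 72.2 and 69.4 CPM. Spink4, at 12551, 8439, 9632 and 10758 CPM, stood there at 18963, 13451, 19881 and 16858 CPM, higher in all 4 libraries. Tff3, at 22364, 23733, 14472 and 18969 CPM stood there at 21568, 26557, 14862 and 18041 CPM.

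**Figure D3:**
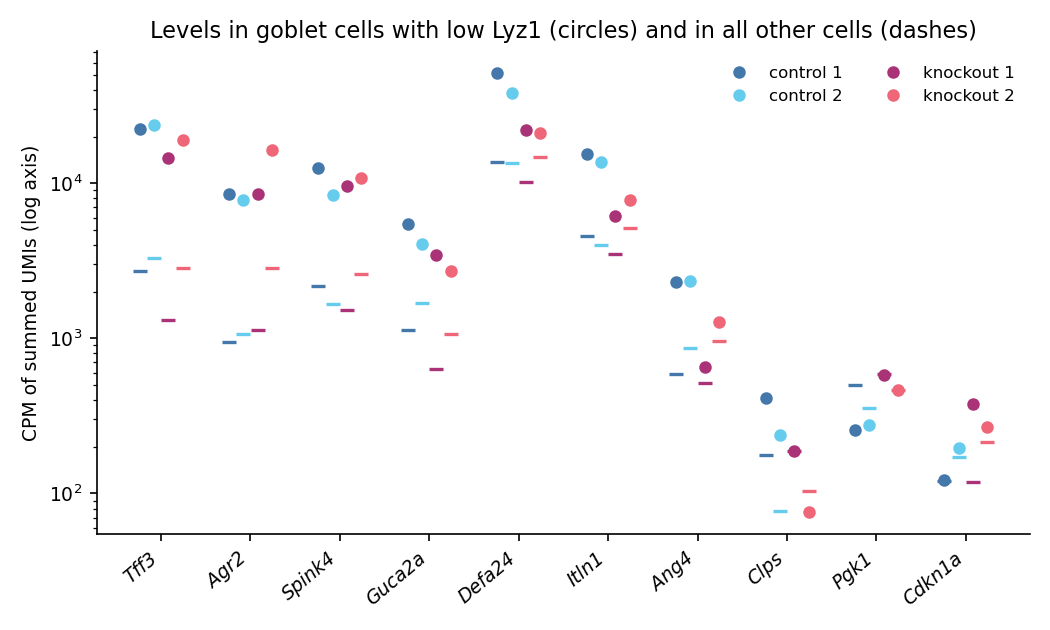
Level in CPM (log axis) of Tff3, Agr2, Spink4, Guca2a, Defa24, Itln1, Ang4, Clps, Pgk1 and Cdkn1a, by library. Circles are the goblet cells with low lysozyme and dashes all other cells of the same library. For Tff3 the circles lie above the dashes in every library, by 6.63 to 11-fold. For Clps they lie below the dashes in both knockouts, at 187.2 and 75.6 CPM against 188.6 and 103.4 CPM.

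The targeted genes were sparse in so few cells. Cbl had 16, 22, 2 and 6 UMIs in the goblet cells, or 19.7, 18.1, 5.35 and 6.21 CPM, so both knockouts lay below both controls. Its log2 change was -1.69 (SE 0.54, adjusted p = 0.169 by edgeR's quasi-likelihood test with the mouse as a block). Cblb had 6, 9, 4 and 4 UMIs (7.37, 7.39, 10.7 and 4.14 CPM), too few to be tested, and the groups overlapped. Cblc, the epithelial family member that was not targeted, stood at 38.1, 63.2, 37.4 and 46.6 CPM. Which exons the alleles delete is not given in the sources used here, so reads outside them do not check the deletion.

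Knockout and control goblet cells were compared on UMI counts summed over the cells of each library. With the group as the only term, edgeR's quasi-likelihood test called 0 of 7394 genes in either direction at an adjusted p under 0.05 (0% each), while 102 were higher and 100 lower at an unadjusted p under 0.05. DESeq2 on the same design called 1 gene, Defa17, which was lower. With the mouse as a block, edgeR called 39 genes higher in knockout (0.527% of those tested) and 31 lower (0.419%). The rule gene Fcgbp is 1 of the 31 and is not read as a result, which leaves 30 lower. All statements below that a gene rose or fell refer to that blocked fit. It left 1 residual degree of freedom, against a prior of 43.3 estimated across genes. Its p-values thus rest mostly on variance shared between genes and little on spread between the libraries. With the group alone and no filter on low counts, edgeR called 62 genes, of which 48 were among these 70. In CPM, 1625 genes (22%) were higher in both knockouts than in both controls and 815 (11%) lower, the background for every count of genes whose groups did not overlap. Leaving out one library of the 4 in turn, with the group as the only term, gave 0 to 14 higher and 0 to 12 lower calls. Gm26917, a noncoding transcript that rises with reads from ribosomal RNA, was among the higher calls at 415.2, 144.6, 1251 and 167.8 CPM, so knockout 1 stood apart, and the part of RNA quality in the other calls was not tested.

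Transcripts of Paneth granule products fell together. Of 11 Paneth markers tested, 9 fell and 0 rose, with a median log2 change of -1.41 against -0.01 over all genes. Of the 11, 8 lay lower in both knockouts than in both controls, against 11% of all genes. Of 16 alpha-defensin genes tested, 14 fell, all 16 had negative changes, and their median was -1.98. Their mature transcripts are near copies: the share of 50-base windows also present in another gene ran from 28.1% in Defa24 to 100%, with a median of 79.5%, so how the counting divided reads among them is uncertain.

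Promoter windows of 4 genes that fell are shown because the defensins moved together; Mmp7 is a Paneth gene of another family, and Guca2a a secreted peptide gene outside it. Each is 250 bases before to 50 bases after the RefSeq transcript start on GRCm38.p6, 5′ to 3′ on the gene's strand. Capitals mark CTTTGAT, the core bound by TCF/LEF factors of the Wnt pathway (here read as ATCAAAG from the other strand), and TATAAA, the TATA box. Both strands were searched, and the 2 motifs do not overlap. The windows are Defa30 at chr8:21134400-21134699, Defa22 at chr8:21162027-21162326, Mmp7 at chr9:7691840-7692139 and Guca2a at chr4:119637482-119637781, all on the plus strand.
Defa30: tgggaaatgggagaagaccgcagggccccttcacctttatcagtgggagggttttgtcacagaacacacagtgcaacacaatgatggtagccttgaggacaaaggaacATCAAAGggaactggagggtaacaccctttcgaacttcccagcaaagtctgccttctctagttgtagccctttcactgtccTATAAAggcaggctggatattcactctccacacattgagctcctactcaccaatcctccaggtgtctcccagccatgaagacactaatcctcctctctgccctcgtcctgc
Defa22: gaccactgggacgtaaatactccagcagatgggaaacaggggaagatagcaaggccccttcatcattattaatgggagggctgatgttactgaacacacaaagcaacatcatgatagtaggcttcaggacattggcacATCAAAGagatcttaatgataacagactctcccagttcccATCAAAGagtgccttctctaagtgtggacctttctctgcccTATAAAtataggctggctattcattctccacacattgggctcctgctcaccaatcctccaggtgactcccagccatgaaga
Mmp7: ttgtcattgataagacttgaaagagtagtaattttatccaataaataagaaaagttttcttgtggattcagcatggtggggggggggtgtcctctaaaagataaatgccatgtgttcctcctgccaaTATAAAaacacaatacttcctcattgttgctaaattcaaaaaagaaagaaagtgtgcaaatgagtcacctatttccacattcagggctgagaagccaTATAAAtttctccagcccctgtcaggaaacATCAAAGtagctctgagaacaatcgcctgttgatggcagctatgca
Guca2a: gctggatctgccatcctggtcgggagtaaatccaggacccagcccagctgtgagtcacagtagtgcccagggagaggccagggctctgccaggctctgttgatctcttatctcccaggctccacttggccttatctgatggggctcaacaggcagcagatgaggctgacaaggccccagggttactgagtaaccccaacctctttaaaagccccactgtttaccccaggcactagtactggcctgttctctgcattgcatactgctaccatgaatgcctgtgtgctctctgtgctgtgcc
The Defa30 window held CTTTGAT 142 bases and TATAAA 61 bases before the start. Defa22 held CTTTGAT at 112 and 72 bases and TATAAA at 31 bases before it. Mmp7 held TATAAA at 123 and 26 bases before the start and CTTTGAT 5 bases after it, and the Guca2a window held neither. Another RefSeq start of Mmp7 gave a window at chr9:7692091-7692390. There the same CTTTGAT lay 247 bases before the start, and no TATAAA was found. Of the 9 tested defensins with a RefSeq window, 9 held CTTTGAT and 8 held both motifs, against 3.73% and 0.740% of the 32851 windows searched. A gene was counted when any of its windows held the motif, while the shares over all genes count windows. CTTTGAT was in 1 of 6 other Paneth markers with a window, Mmp7, and in 0 of 24 goblet genes. The 9 defensin windows were 62.3% to 100% identical in pairs, with a median of 82.0%, so they are not independent sequences. A match describes letters in a window and not a bound site.

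Defa24, the tested defensin with the smallest share of shared windows, stood at 51607, 38463, 21986 and 21019 CPM. Both knockouts lay below both controls, and its log2 change was -1.15 (SE 0.12, adjusted p = 2.97e-09 by edgeR). The median cell held 25095, 17515, 2829 and 5381 CPM, so the typical cell as well as the sum was lower in both knockouts. In all other cells Defa24 stood at 13641, 13467, 10191 and 14768 CPM, with no such separation. It was called in 12 of 12 blocked settings, with changes from -1.54 to -0.95.

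Other Paneth products fell with it. Itln1, a lectin that binds microbial sugars, stood at 15382, 13813, 6134 and 7751 CPM, a log2 change of -1.17 (SE 0.14, adjusted p = 4.56e-08 by edgeR). Ang4, an antimicrobial ribonuclease, was at 2298, 2327, 657.8 and 1276 CPM (log2 change -1.41), and Clps, pancreatic colipase, at 414.0, 238.2, 187.2 and 75.6 CPM (-1.49). Defa17 was at 3942, 1855, 1013 and 657.5 CPM (-1.82). In each of these 4 the groups did not overlap. Mmp7, named after its values were seen, stood at 2645, 1944, 1559 and 1599 CPM, a smaller change of -0.61 (SE 0.16, adjusted p = 0.0319 by edgeR). Mmp7 was not called without the 16 mixed cells (adjusted p = 0.229) or with Lyz1 under 2000 CPM (adjusted p = 0.199). Ang4 was at -0.77 (adjusted p = 0.101) in that last setting.

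Some of the largest defensin changes rested on very few cells. Defa21 stood at 2405, 1314, 591.0 and 41.4 CPM (log2 change -3.39), yet it was detected in only 9, 7, 3 and 6 cells, and a single cell gave 95.1%, 46.7%, 99.1% and 32.5% of its UMIs. Defa22 stood at 4419, 1050, 1209 and 28.0 CPM (-3.27), with 98.5% of its UMIs in knockout 1 from 1 cell and with knockout 1 above control 2. Defa30 stood at 5828, 4623, 2348 and 736.2 CPM (-2.07), and 1 cell gave 95.3% of it in knockout 1. Its adjusted p was 0.077 with Lyz1 under 2000 CPM. Defa20, Defa35 and Defa5 had changes of -3.59, -2.66 and -2.50.

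The summed level of the 13 Paneth markers was 89447, 65849, 36020 and 33411 CPM, or 0.403 and 0.507 of the control level within the mice. With 2 libraries per group the two-sided exact permutation p was 0.333, the smallest possible. In goblet cells of high Lyz1 the same sum was 190079, 153949, 247800 and 179257 CPM, or 1.30 and 1.16 of control, and in all other cells 25127, 24176, 19485 and 27424 CPM. Both knockouts thus lay below both controls in the low-lysozyme goblet cells, and knockout 1 lay highest in those with high lysozyme.

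Within narrower ranges of Lyz1 the Defa24 medians kept this pattern. At under 1000 CPM of Lyz1 they were 8053, 9619, 1798 and 829.9 CPM (24, 15, 24 and 29 cells), and from 1000 to 5000 CPM they were 36100, 30391, 23147 and 16356 CPM (24, 26, 15 and 39 cells). At 5000 CPM or more they were 107603, 86686, 118621 and 90673 CPM (118, 62, 100 and 165 cells). The knockouts lay below the controls in both lower ranges and overlapped with them in the highest one. Tff3, for comparison, had medians of 15900, 14290, 11794 and 14082 CPM under 1000 CPM of Lyz1. From 1000 to 5000 CPM they were 19322, 21373, 13506 and 14202 CPM, and at 5000 CPM or more 19791, 23217, 14798 and 15260 CPM. Both knockouts thus lay below both controls for Tff3 in every range, the highest included, and least clearly under 1000 CPM. Under 1000 CPM of Lyz1 the median depths were 15312.5, 29205, 6638.5 and 16312 UMIs, so knockout 1 was shallow and knockout 2 was not. With every cell thinned to 5000 UMIs, Defa24, Itln1 and Defa17 were still called lower in the blocked fit.

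**Figure D4:**
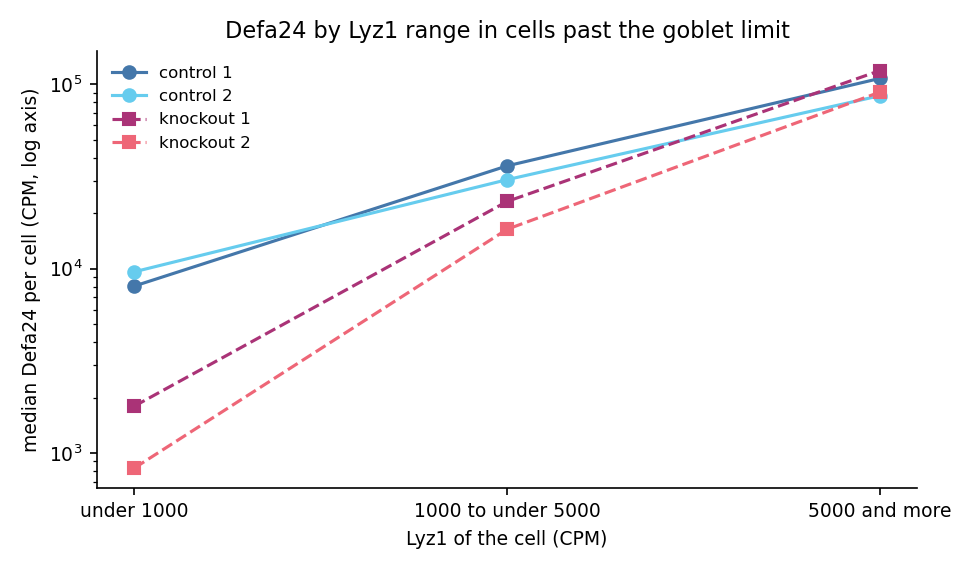
Median Defa24 level in CPM (log axis) of non-dividing cells past the goblet limit, by range of Lyz1; solid lines are control libraries and dashed lines knockout libraries. Below 1000 CPM of Lyz1 the knockouts are at 1798 and 829.9 CPM against 8053 and 9619 in control, and at 5000 CPM or more the groups overlap.

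Among goblet genes outside the rule, 3 of 32 tested fell and 0 rose, with a median log2 change of -0.08 against -0.01 over all genes. Of 17 secreted mucus products tested, 5 fell (Tff3, Guca2a, Ang4, Itln1 and Ccl6) and 1 rose (Reg4), and Ang4 and Itln1 also stand in the Paneth list. Tff3 stood at 22364, 23733, 14472 and 18969 CPM, with both knockouts lower (log2 change -0.57, SE 0.12, adjusted p = 0.00633 by edgeR). Without the 16 cells rich in enterocyte or enteroendocrine transcripts its adjusted p was 0.284. Guca2a, the guanylin precursor that regulates salt and water secretion, was at 5479, 4061, 3436 and 2719 CPM (-0.72, SE 0.14, adjusted p = 0.00152). Ccl6, a chemokine, was at 320.6, 235.7, 21.4 and 111.8 CPM (-1.97, SE 0.28, adjusted p = 3.89e-06).

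Core goblet regulators and folding proteins did not pass the test. Agr2 stood at 8510, 7857, 8466 and 16409 CPM (adjusted p = 0.296 by edgeR), where knockout 2 was far above the other 3 libraries. It was called higher in 2 of 12 blocked settings, with DESeq2 size factors (0.43, adjusted p = 0.042) and with Lyz1 under 2000 CPM (0.60, adjusted p = 0.0114). Spink4 was at 12551, 8439, 9632 and 10758 CPM (adjusted p = 0.914) and Spdef at 218.7, 124.0, 248.7 and 203.0 CPM (adjusted p = 0.625), and in both the groups overlapped. Reg4, a secreted lectin of goblet and enteroendocrine cells, rose to 369.0 and 1225 CPM from 314.5 and 364.7 CPM (log2 change 0.97, SE 0.22, adjusted p = 0.00879). Its change was -0.00 without knockout 2, so that library decided it, and its adjusted p was 0.0517 without the 16 mixed cells and 0.279 with Lyz1 under 2000 CPM.

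Few genes of the mucus production machinery passed the test. In mucin glycosylation, 1 of 27 genes tested rose, the fucosyltransferase Fut2 (log2 change 2.07, adjusted p = 0.0403 by edgeR, and 0.0969 with Lyz1 under 2000 CPM), and 0 fell. Among 22 granule and exocytosis genes 0 rose and 0 fell, with a median log2 change of -0.27. Among 24 endoplasmic reticulum folding genes 0 were called, with a median of 0.26. Of the 24 folding genes, 11 were higher in both knockouts than in both controls and 0 were lower, against 22% and 11% of all genes. Hspa5, the main chaperone of that compartment, stood at 832.9, 733.5, 1123 and 1158 CPM (0.45, SE 0.16, adjusted p = 0.261). Of 21 genes of the unfolded protein response and degradation 0 were called. With the group alone, 0 genes of any of these lists were called.

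Of 16 p53 target genes tested, 2 rose and 0 fell, with a median log2 change of 0.62 against -0.01 over all genes. Of the 16, 9 lay higher in both knockouts than in both controls, against 22% of all genes. Cdkn1a, the p21 inhibitor of cell cycle kinases, stood at 121.6, 197.1, 377.0 and 268.2 CPM (log2 change 0.89, SE 0.20, adjusted p = 0.00934 by edgeR). Its adjusted p was 0.0714 without the 16 mixed cells and 0.137 with Lyz1 under 2000 CPM. Phlda3, a repressor of Akt signalling, was at 1.23, 1.64, 24.1 and 36.2 CPM on 1, 2, 9 and 35 UMIs (4.21, SE 0.62, adjusted p = 8.21e-06). In all other cells Phlda3 was at 6.22, 10.3, 24.8 and 38.8 CPM, where both knockouts also lay above both controls. In the ERK feedback list, whose genes respond to receptor tyrosine kinase signalling, 0 of 11 were called, with a median of 0.47, and in the EGFR family list 0 of 14, with a median of -0.22.

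A further 4 genes that rose stand in no list used here and were named after their values were seen, so they form no tested group. Pgk1, a glycolytic kinase, stood at 258.0, 278.4, 580.3 and 467.0 CPM (log2 change 0.86, SE 0.17, adjusted p = 0.00283 by edgeR). Ldha, lactate dehydrogenase A, was at 710.1, 719.5, 1292 and 1117 CPM (0.65), and Bnip3, a mitophagy receptor, at 16, 8.21, 74.9 and 28.0 CPM (1.91). Mif, a cytokine, was at 465.6, 382.7, 807.6 and 649.3 CPM (0.69). In all 4 both knockouts lay above both controls. Slc16a3, a lactate exporter chosen by the rule for named genes, was at 22.1, 15.6, 64.2 and 42.5 CPM (1.39). Without the 16 mixed cells the adjusted p was 0.0106 for Pgk1, 0.00766 for Bnip3, 0.054 for Ldha and 0.0595 for Mif. With Lyz1 under 2000 CPM it was 0.279 for Pgk1 and Ldha, 0.536 for Mif and 0.0731 for Bnip3, so none of these 4 calls held there.

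Further rises came from single genes of other roles. Slc25a4, a mitochondrial ADP/ATP carrier, stood at 28.3, 4.11, 45.5 and 40.4 CPM (log2 change 1.63). Gimd1 was at 13.5, 17.2, 37.4 and 67.3 CPM (1.73), Rcn1, a calcium-binding protein of the secretory pathway, at 16, 14.0, 29.4 and 59.0 CPM (1.59), and Ckb, brain-type creatine kinase, at 52.8, 41.9, 136.4 and 80.8 CPM (1.05). The groups did not overlap in any of these 4. Without the 16 mixed cells Ckb changed by 0.51 (adjusted p = 0.582) and Slc25a4 had an adjusted p of 0.0916, so neither was called. With Lyz1 under 2000 CPM the adjusted p was 0.119 for Gimd1. Hspa1a, a heat shock protein, was at 7.37, 26.3, 18.7 and 74.6 CPM (1.41), where knockout 1 lay below control 2, and its change was -0.02 without knockout 2. It was 0.56 (adjusted p = 0.937) with Lyz1 under 2000 CPM.

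Enterocyte and enteroendocrine genes also counted as rises, but on few cells. Of 9 enterocyte markers tested 5 rose, with a median log2 change of 1.07. The vitamin A-binding protein Rbp2 stood at 11.1, 55.9, 16 and 235.1 CPM, so knockout 2 alone was high. Apoa1, a lipoprotein component, was at 35.6, 248.9, 152.4 and 402.8 CPM, with a change of 1.07 that became -1.01 without the 16 mixed cells. Without those cells 5 enterocyte markers could still be tested, with a median of -0.94. The enterocyte markers, Apoa1 among them, helped to choose those cells, of which 7 lay in knockout 2 and 3 in each other library. The -1.01 and -0.94 are thus partly set by that choice and do not test the rise. Of 9 enteroendocrine markers 4 rose, among them the appetite hormone Ghrl, at 1.23, 0, 128.4 and 18.6 CPM, whose 48 UMIs in knockout 1 all came from 1 cell. Over all calls, a single cell held 50% or more of the UMIs in a high library for 21 of the 39 genes that rose and 9 of the 31 that fell. Without the 16 mixed cells the blocked fit called 14 genes higher and 26 lower, and 37 of these 40 were among the 70.

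**Figure D5:**
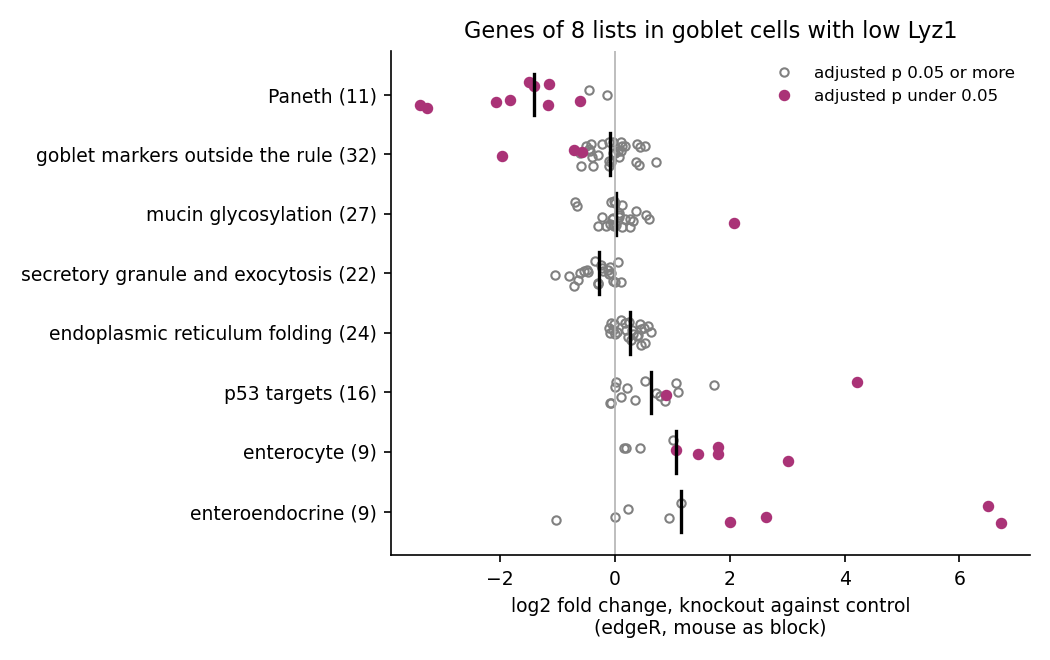
Knockout against control log2 change in goblet cells with low lysozyme for each tested gene of the lists, from the fit with the mouse as a block; filled points have an adjusted p under 0.05 and black bars are medians. Paneth markers lie mostly below 0 with a median of -1.41, and goblet genes outside the rule lie around 0 with a median of -0.08.

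The knockout effect in goblet cells was set against that in all other cells of the same libraries by an interaction test in edgeR with the library as a block. That fit left 2 residual degrees of freedom, against a prior of 26.2 estimated across genes. The same fit with class by replicate number as a further term left 1, against an infinite prior. Their p-values thus rest mostly on variance shared between genes and little on spread between the libraries. Of 12558 genes, 81 had a higher effect in the goblet cells (0.645%) and 20 a lower one (0.159%). The lower ones included defensins, among them Defa24 (difference in log2 change -0.99, adjusted p = 3.34e-06), and also Itln1 (-1.15, adjusted p = 1.39e-10), Ang4 (-1.40, adjusted p = 3.34e-06) and Clps (-1.74, adjusted p = 2.35e-05). Guca2a had a difference of only 0.05, which did not pass the test. Against goblet cells of high Lyz1 alone, a comparison added after the data were seen, 3 genes were higher and 15 lower, and with class by replicate number as a further term 25 were higher and 45 lower. The lower ones included Defa24 (-1.37, adjusted p = 0.00199), Itln1 (-1.51, adjusted p = 0.0245) and Defa30 (-2.96, adjusted p = 0.0014). The 3 higher genes of the first of these fits, named after their values were seen, were Apoa4, Aldh1a1 and Ces2e, of which Apoa4 is an enterocyte marker.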

How the data were processed

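The data are droplet single-cell RNA counts from 4 organoid libraries. The deposited matrices hold whole-number UMI counts per gene and barcode. Per the submitters' processing notes, the counting used Cell Ranger 3.0.1 and the build mm10. Of 5602 deposited barcodes, 173 with under 500 genes were left out. Library totals were 27855911, 22139560, 28597336 and 35592468 UMIs. The strand setting is not given in the sources used here.

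Counts were summed per library over the goblet cells (814016, 1217522, 373960 and 965710 UMIs) and over all other cells. Genes were tested two-sided with edgeR 4.0.16 (glmQLFit, TMM, filterByExpr, Benjamini-Hochberg over all genes tested) in R 4.3.3, with the group alone as the design fixed and with the mouse number as a block. Same-numbered libraries carry the same prefix in the deposited files, with 2 mice in the series' design, so they were taken as the same mouse, and their deviations from the group means correlated at 0.417 over 7394 genes. The SE given with an edgeR log2 change is its absolute value divided by the square root of the test's F statistic. DESeq2 1.42.0 and limma 3.58.1 were alternatives. Shares used exact permutation tests (scipy 1.17.1). Doublets were scored with scanpy 1.11.5 (Scrublet) and marked at 0.8% per 1000 barcodes (70 barcodes), but kept, with their removal an alternative. Named genes were the 12 largest rises and 12 largest falls called in the blocked fit at an average log2 CPM of at least 5, the called or highest genes of each list, and the 6 largest interaction effects. The members and gene lists were chosen with earlier results of these data known. The result for 1 gene chosen by the rule for named genes is not reported here.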

Additional observations from a re-analysis of the deposited data

Results flagged for a closer look

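The knockout effect differed between the low-lysozyme goblet cells and all other cells in 101 of 12558 genes by the edgeR interaction test. The goblet cells had the lower effect for Defa21 (difference in log2 change -3.36, adjusted p = 0.00225), Defa20 (-3.09, adjusted p = 0.00119) and Defa5 (-2.82, adjusted p = 0.00548). These 3 also rested on few cells. A single cell gave 95.1% and 99.1% of the Defa21 UMIs of control 1 and knockout 1. Defa20 had 6 and 3 UMIs in the knockouts, and 1 cell gave 62.2% of its UMIs in control 1. For Defa5, 1 cell gave 86.4% in knockout 1 and all 7 UMIs of knockout 2. The goblet cells had the higher effect for the gut hormone Pyy (10.73, adjusted p = 3.02e-04). Pyy had UMIs in 1 goblet cell of each knockout library and in none of the controls, so the size of that value depends on the fit and is no measured fold. The same direction was found for the enterocyte transporters Slc6a19 (5.49, adjusted p = 2.88e-06) and Slc13a1 (4.87, adjusted p = 7.36e-04) and for the carboxylesterase Ces2a (5.21, adjusted p = 3.44e-05). In the goblet cells 1 cell gave 85.7% and 92% of the Slc6a19 UMIs of knockout 1 and knockout 2, and Slc13a1 had 0 UMIs in knockout 1 and 95% of its 20 UMIs in knockout 2 from 1 cell. In all other cells Ces2a stood at 385.8, 488.6, 159.0 and 196.0 CPM, so there it was lower in both knockouts, while in the goblet cells of knockout 1 a single cell gave 96% of its UMIs.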

How the results depend on the processing

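The lower share of goblet cells in knockout kept its direction in every alternative run. It was -4.42 points without the Lyz1 limit and -3.04 to -1.20 when one library was left out. Same-numbered libraries were taken as the same mouse from the prefix of the deposited files, and the replicate block rests on that: 39 higher and 31 lower genes passed, and 0 and 0 passed with the group alone. Other blocked counts, higher then lower, were 1 and 8 with DESeq2, 15 and 20 with limma, 7 and 12 with library totals, 61 and 43 with DESeq2 size factors, 54 and 46 without a filter, and 49 and 36 without doublets. They were 26 and 28 with Lyz1 under 2000 CPM, 41 and 43 with a goblet sum of 2000 CPM or more, 38 and 28 without the rule genes, and 0 and 5 with cells thinned to 5000 UMIs. An alternative chosen after seeing the data, without the 16 mixed cells, gave 14 and 26. With the group alone, no filter gave 36 and 26, DESeq2 0 and 1, and leaving out one library 0 to 14 and 0 to 12. The interaction count of 101 was 205 with class by replicate number (the block), 161 without a filter, 153 with library totals, 45 without dividing cells among the others, 18 against goblet cells of high Lyz1 (added after seeing the data; 70 with class by replicate number) and 118 to 185 when one library was left out.

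Of 38 named genes, 26 kept their direction throughout. For the other 12, leaving out one library gave log2 changes from -0.07 (without knockout 2) to 0.92 for Agr2, -0.02 (without knockout 2) to 2.86 for Apoa1, -0.22 (without control 2; -0.02 without knockout 1) to 0.57 for Atoh1, -0.63 to 0.04 (without control 2) for Cblc, and -0.69 (without control 2; -0.66 without knockout 1) to 6.99 for Chga. They ran from -0.10 (without control 2) to 0.78 for Spdef and from -0.44 to 0.20 (without control 1) for Spink4. The ends given by leaving out knockout 2 were -1.43 for Clca4b (to 3.43), 0.23 for Ern2 (from -0.28), -0.02 for Hspa1a (to 2.65), -1.22 for Rbp2 (to 3.48) and -0.00 for Reg4 (to 1.78). Thinning gave -0.53 for Atoh1 and 0.23 for Cblc. Apoa1 was -1.01 in both fits without mixed cells, which its own level helped to choose. Ern2 was 0.08 and, blocked, 0.05 with library totals, and 0.00 without mixed cells. The cause was not tested. Sums of 39 to 68 cells limit what could be detected, and 2 libraries per group limit every test.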
